A study of Mus musculus with 12 samples.

Results

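The 39 protein-coding HOX genes of the mouse were followed through 12 RNA-seq libraries of cultured mouse embryonic fibroblasts. They were chosen by name alone, as the rows named Hox with a cluster letter from a to d and a number, among 48709 genes in the count table. All 12 libraries came from wild type C57BL/6 embryos of about mid-gestation (E12.5–13.5). The 4 groups were a control siRNA (siControl), an siRNA against IMP2 (siIMP2), and each of these with interleukin-17 (siControl_IL17 and siIMP2_IL17), with 3 libraries each. Cells were transfected for 24 hours and then left unstimulated or given 200 ng/mL of IL-17, a cytokine that acts on stromal cells, for 8 hours. IMP2 is the RNA-binding protein encoded by Igf2bp2, and a transient siRNA lowers its mRNA without removing the gene. In every group the titles of replicates 1 and 2 begin with NA and that of replicate 3 with RB160. These are called the NA set (8 libraries) and the RB160 set (4 libraries), and the labels do not say what the prefixes mean, how many embryos were used or which part of the embryo was taken.

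HOX genes encode homeodomain transcription factors that give cells their position along the head-to-tail axis and along the limbs. They lie in 4 clusters, and within a cluster the genes with low paralog numbers sit at the 3' end and are switched on early and far forward, whereas those with high numbers sit at the 5' end and are used towards the tail and the far limb. Fibroblasts in culture keep much of the HOX pattern of the place they were taken from, and PBX, MEIS and PKNOX proteins bind DNA together with HOX proteins. In the deposited mm10 coordinates HOXA spans chr6:52155590-52260880, HOXB chr11:96194316-96368256, HOXC chr15:102921103-103036852 and HOXD chr2:74668310-74765142. The clusters also carry the miR-10 and miR-196 genes, whose products bind HOX mRNAs.

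Mature sequences from RefSeq (GRCm38.p6) are shown because these microRNAs are encoded between the HOX genes, with the seed (bases 2 to 8) in capitals. The miR-196a and miR-196b products share 1 seed, and miR-10a and miR-10b share another.
miR-196a: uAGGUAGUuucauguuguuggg
miR-196b: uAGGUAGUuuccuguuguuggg
miR-10a: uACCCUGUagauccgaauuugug
miR-10b: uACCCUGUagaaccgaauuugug
The seed match of miR-196, ACTACCT, stood in the 3' UTR of 9 of 39 HOX genes (23.08%), against 5.929% of 21707 genes with an annotated 3' UTR in GENCODE M21. The match of miR-10, ACAGGGT, stood in 4 of 39 (10.26%) against 12.12% of all genes. Only the strand of the mRNA was searched. Target windows of members described further on follow, with the bases that face the seed in capitals. Hoxb8 had no 7-base match, but it was the 1 HOX gene in which at least 20 of the 22 bases of miR-196a could pair when G:U pairs were counted, as they could in 239 genes in all. Its window paired at 22 of 22 bases, 1 of them a G:U pair.
Hoxb8: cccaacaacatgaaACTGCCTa
Hoxb7: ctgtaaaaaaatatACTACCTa
Hoxb6: tggaaggagcacatACTACCTa
Hoxa5: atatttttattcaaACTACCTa
A match describes letters, not binding. The hairpin rows of both families were at 0 counts in all 12 libraries, and mature microRNAs are not measured here.

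Promoters from the same RefSeq table (250 bases before to 50 bases after the start) were matched for 22 of the 39 genes. The promoters of Hoxb8, at chr11:96281655-96281954 on the plus strand, and of Hoxa10, at chr6:52240805-52241104 on the minus strand, are printed because these genes differed between the title sets in opposite directions. Capitals mark TTTAT on either strand, a core letter string of CDX and posterior HOX motifs. It occurred 6 times in the Hoxb8 window and 1 time in this Hoxa10 window.
Hoxb8: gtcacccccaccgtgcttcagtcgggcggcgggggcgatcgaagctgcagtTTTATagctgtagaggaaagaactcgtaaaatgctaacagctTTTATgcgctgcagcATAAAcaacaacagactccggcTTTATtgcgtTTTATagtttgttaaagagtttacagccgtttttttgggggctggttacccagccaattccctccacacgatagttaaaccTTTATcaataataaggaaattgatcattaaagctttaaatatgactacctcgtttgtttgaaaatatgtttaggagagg
Hoxa10: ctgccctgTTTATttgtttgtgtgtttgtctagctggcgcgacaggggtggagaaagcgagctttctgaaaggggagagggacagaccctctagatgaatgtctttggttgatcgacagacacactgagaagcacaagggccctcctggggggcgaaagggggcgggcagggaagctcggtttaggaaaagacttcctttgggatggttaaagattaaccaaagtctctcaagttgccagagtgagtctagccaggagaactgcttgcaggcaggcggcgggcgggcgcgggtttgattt
TTTAT was present in 37.5% of the 24 HOX promoter entries and in 40.01% of all 32851 entries. The PBX-HOX string TGATNNAT, searched on both strands, was present in 16.67% against 8.846%.

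Total counts per library ranged from 33841054 to 44433699, so that 1 CPM (counts scaled to library size, with TMM factors) stood for 31.89 to 50.86 reads. Igf2bp2 lay between 134 and 167 CPM in the 6 control siRNA libraries and between 18.4 and 28.2 CPM in the 6 IMP2 siRNA libraries, which did not overlap. Summed fibroblast markers reached 27538 to 37910 CPM in every library, against at most 16.5 CPM for macrophage, 1.53 CPM for endothelial, 1.47 CPM for epithelial and 0.234 CPM for erythroid markers. Neural (37.6 to 147 CPM), skeletal muscle (15.9 to 252 CPM) and cartilage or bone (176 to 698 CPM) marker sums were higher and varied between libraries, while Myod1, Myf5 and Pax7 were at 0 counts. Acta1 alone reached 251 CPM and Col2a1 616 CPM, and these genes made up most of the muscle and of the cartilage or bone sums. Likewise, Fn1, Col1a1, Col1a2 and Vim made up most of the fibroblast sum. Some other fibroblast markers were low: Lum and Fap never passed 0.451 and 0.122 CPM in NA, and Thy1 never passed 0.275 CPM in RB160. Pdgfrb, in contrast, was at 78.2 CPM or more in every library. In bulk RNA, fewer cells that express a gene and less RNA per cell cannot be told apart. Nothing in the labels says that replicates came from separate embryos or cultures, so each p-value reflects library-to-library spread only, and that spread may be technical.

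Of the 39 HOX genes, 25 had enough counts to be tested and 14 did not. The tested genes were 9 of 11 in HOXA, 8 of 10 in HOXB, 7 of 9 in HOXC and 1 of 9 in HOXD. Hoxd1, Hoxd10, Hoxd11, Hoxd12, Hoxd13, Hoxb1 and Hoxc12 had 0 counts in all 12 libraries, where 3 counts over the libraries would be 0.006628 CPM. This limit covers counting error only. The other 7 untested genes, Hoxd3, Hoxa13, Hoxb13, Hoxa11, Hoxc13, Hoxd4 and Hoxd9, had 1 to 45 counts in all and at most 12 in any library. In HOXA and HOXC the genes of the highest numbers were thus near or at 0, and HOXD, the cluster best known from the far limb and genitalia, was nearly silent except for Hoxd8.

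**Figure D1:**
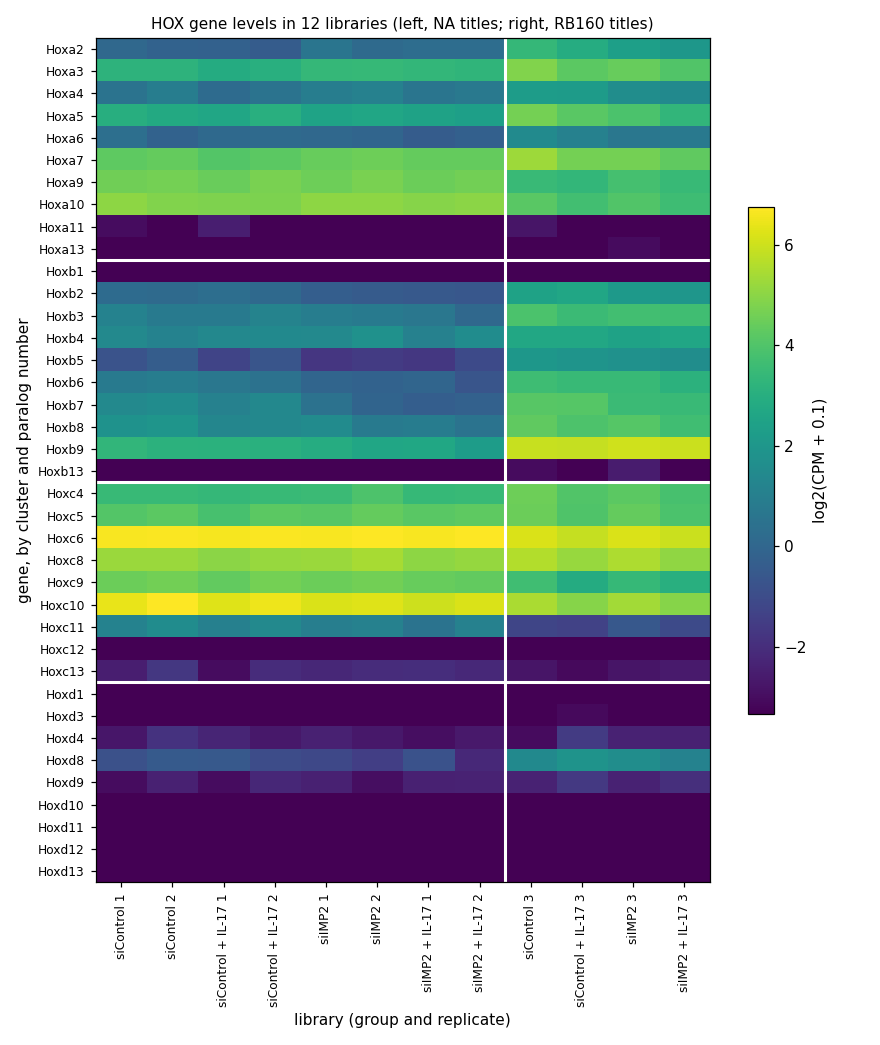
Level of HOX genes (rows, by cluster and paralog number) in each of the 12 libraries (columns, 8 NA on the left and 4 RB160 on the right), as log2(CPM + 0.1) in colour. Hoxc6 and Hoxc10 are the brightest rows on the left, the HOXB rows brighten on the right, and most HOXD rows are dark throughout.

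Per length, the order of the levels depended on the title set. On the deposited RPKM scale (reads per kilobase of exon, scaled to library depth) Hoxc6, a trunk-level gene, was first in both sets, at 38.3 ± 1.43 (SD, n = 8) in NA and 28.3 ± 2.80 (SD, n = 4) in RB160. Hoxc10, which is used at the level of the hindlimb, was second in NA at 37.9 ± 7.31 RPKM (SD, n = 8), within its spread of Hoxc6, and came after Hoxc8 in RB160 at 19.5 ± 3.84 RPKM (SD, n = 4), below Hoxc6 by more than their spread. Hoxb9 was at 2.63 ± 0.667 RPKM (SD, n = 8) in NA and was second in RB160, at 24.3 ± 0.711 RPKM (SD, n = 4). The third level in both sets was that of Hoxc8, 17.6 ± 1.63 and 22.6 ± 3.78 RPKM (SD, n = 8 and 4). Only 9.07% of the reads of Hoxc6 and 12.6% of those of Hoxc8 were assigned to that gene alone. For Hoxc10 it was 48.2% and for Hoxb9 100%, so this order rests in part on shared reads.
Within HOXA the order turned between the sets. Hoxa10 was above Hoxa7 in NA by more than their spread, at 8.35 ± 0.480 against 6.23 ± 0.488 RPKM (SD, n = 8). In RB160 Hoxa7 had 9.70 ± 3.16, Hoxa5 9.36 ± 3.72 and Hoxa10 4.64 ± 0.837 RPKM (SD, n = 4), with Hoxa7 and Hoxa5 within their spread of each other. Hoxb7 had 1.01 ± 0.567 RPKM (SD, n = 8) in NA and 9.60 ± 2.58 RPKM (SD, n = 4) in RB160. The only measurable HOXD gene, Hoxd8, had 0.137 ± 0.0588 RPKM (SD, n = 8) in NA and 1.06 ± 0.242 RPKM (SD, n = 4) in RB160, and Hoxd9 averaged 0.0422 RPKM over the 12 libraries. Averaged over all 12 libraries, Hoxc6 and Hoxa7 were at 35.0 and 7.39 RPKM, and at 53.3 and 10.5 RPKM when the longest transcript gave the length.

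The title sets held different HOX profiles. Summed over a cluster, HOXB took 3.11% to 5.88% of all HOX CPM in the 8 NA libraries and 27.6% to 32.3% in the 4 RB160 libraries. HOXC went the other way, with 67.4% to 70.8% in NA and 41.2% to 46.5% in RB160, while the HOXA ranges, 23.6% to 28.5% and 22.7% to 28.2%, overlapped. The sum over all HOX genes, 365 to 428 CPM in NA and 370 to 509 CPM in RB160, overlapped as well. In edgeR's quasi-likelihood test, with the treatment groups as terms, 17 of the 25 tested genes were higher in RB160 (34.9% of all 13702 genes tested were) and 7 were lower (34.6% of all genes). Of the 25, 20 differed by at least 2-fold with a call, against 12.6% of all genes, and for 21 the CPM values of the sets did not overlap, against 37.3% of all genes. The median size of the log2 difference was 1.25 for HOX genes and 0.33 for all genes.

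The direction of the difference went with paralog number for most HOXA genes, only in part in HOXC and not in HOXB. Of the 19 tested genes with paralog numbers 1 to 8, 16 were higher in RB160 and 2, Hoxc6 among them, were lower. Of the 6 with numbers 9 to 13, 5 were lower in RB160 and 1, Hoxb9, was higher. The sign of the difference changed along HOXA between Hoxa7 and Hoxa9. Along HOXC it changed more than once: Hoxc4 and Hoxc8 were higher, and Hoxc6 between them and Hoxc9 to Hoxc11 were lower. Hoxc6 was among the exceptions on the low-number side, with only 9.07% of its reads assigned to it alone. The call of Hoxc8 was lost in most fits that left out 1 library. HOXB had no change of sign: all 8 tested genes were higher, with a median log2 difference of 2.99.

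**Figure D2:**
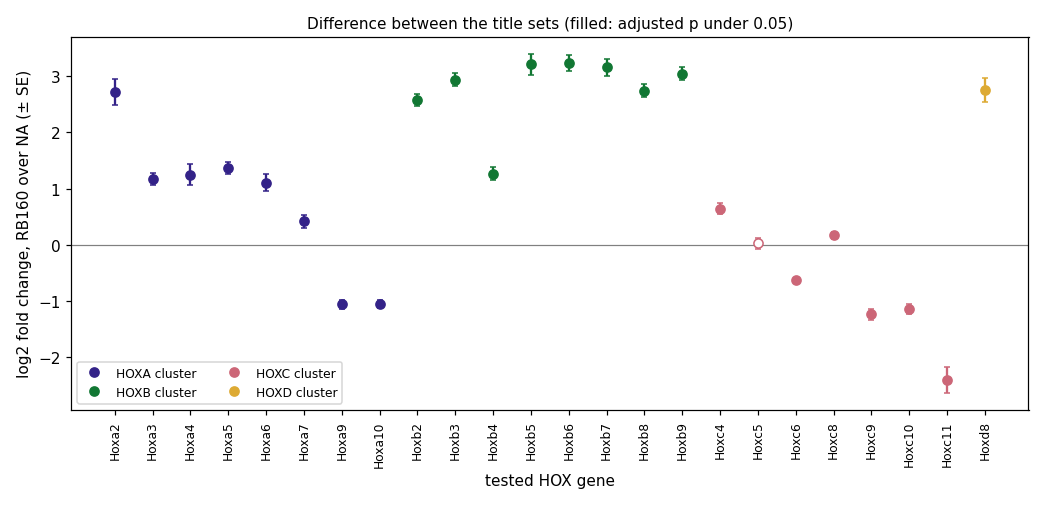
Log2 fold change of RB160 over NA (vertical axis, ± SE) for tested HOX genes, by cluster and paralog number; filled points passed an adjusted p of 0.05. All 8 HOXB genes lie above 0, HOXA and HOXC lie below 0 from Hoxa9 and Hoxc9 onwards, and Hoxc6 also lies below 0.

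The 5 largest differences between the sets were those of Hoxb6, Hoxb5, Hoxb7, Hoxb9 and Hoxb3, while Hoxd8 and Hoxa2 were above Hoxb2 and Hoxb4. Hoxb9, a thoracic to lumbar gene, had a lowest, median and highest level of 4.64, 7.86 and 9.86 CPM in NA, and 60.0, 57.7, 65.4 and 61.4 CPM in the siControl, siControl_IL17, siIMP2 and siIMP2_IL17 libraries of RB160. The RB160 values were all above the NA values, a log2 difference of 3.04 ± 0.11 (SE, edgeR adjusted p = 2.07e-10). Hoxb6, a trunk gene, had 0.533, 1.08 and 1.82 CPM in NA against 12.3, 11.01, 11.1 and 8.79 CPM in RB160 in the same order, the largest difference of any member at 3.24 ± 0.14 (SE, edgeR adjusted p = 9.48e-10).
Hoxb7 had 0.699, 1.67 and 2.93 CPM in NA against 17.6, 17.1, 11.6 and 11.2 CPM in RB160 (log2 difference 3.16 ± 0.15 SE). Hoxb8, the gene with the nearly complete miR-196a window shown above, had 1.35, 2.45 and 3.70 CPM in NA against 19.5, 15.4, 16.9 and 12.6 CPM in RB160 (2.74 ± 0.11). Hoxb7 and Hoxb8 did not overlap between the sets either. Hoxb2 and Hoxb3, hindbrain-level genes at the 3' side of the cluster, had NA medians of 0.847 and 1.68 CPM and RB160 medians of 4.91 and 12.7 CPM, with log2 differences of 2.57 ± 0.10 and 2.94 ± 0.12. Hoxb5 had an NA median of 0.347 CPM and an RB160 median of 3.46 CPM (3.21 ± 0.19). Hoxb4, with 2.58 and 6.32 CPM, had the smallest difference of the cluster (1.26 ± 0.12). In every HOXB gene the RB160 values lay above the NA values.

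Hoxd8 was at 0.125, 0.436 and 0.627 CPM in NA and at 2.64, 3.54, 2.98 and 2.12 CPM in RB160, a log2 difference of 2.76 ± 0.22 (SE, edgeR adjusted p = 1.67e-07). Hoxa2, which patterns the second pharyngeal arch and the hindbrain, went from an NA median of 0.988 CPM to an RB160 median of 6.20 CPM (2.72 ± 0.23). Its RB160 values lay far from each other, at 10.3, 7.37, 5.04 and 3.91 CPM. Hoxa3 to Hoxa6 differed by 1.10 to 1.36 on the log2 scale, Hoxa7 by 0.41 and Hoxc4 by 0.64. Hoxc8 passed with 0.16 ± 0.06 (edgeR adjusted p = 0.0350), but lost its call in 8 of the 12 fits that each left out 1 library (replicates 1, 2 and 3 of siControl, 1 and 3 of siControl_IL17, 1 and 3 of siIMP2, and 1 of siIMP2_IL17). Hoxc8 was also not called with uniquely assigned reads (0.14, edgeR adjusted p = 0.147) or with intron-inclusive reads (0.11, edgeR adjusted p = 0.146). Hoxa7 lost its call without siControl replicate 3. Hoxc5 was not called, at 0.02 ± 0.10.

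Among the genes lower in RB160, Hoxc11 had 1.34, 2.05 and 2.93 CPM in NA and 0.333, 0.295, 0.591 and 0.376 CPM in RB160, a log2 difference of -2.40 ± 0.23 (SE, edgeR adjusted p = 1.04e-06). Hoxc10 had 63.5, 76.2 and 105 CPM in NA and 43.9, 30.1, 40.9 and 30.4 CPM in RB160 (-1.15 ± 0.09). Hoxc9 had an NA median of 22.3 CPM against 12.54, 7.33, 10.7 and 8.00 CPM (-1.24 ± 0.10). These are the tail-side genes of HOXC, and none overlapped between the sets.
In HOXA, Hoxa10 had 27.1, 31.1 and 33.0 CPM in NA and 17.8, 13.02, 16.0 and 12.3 CPM in RB160 (-1.05 ± 0.07, edgeR adjusted p = 5.44e-08). Hoxa9, its neighbour, had an NA median of 24.1 CPM against 11.3, 10.2, 13.7 and 10.96 CPM (-1.07 ± 0.07). Hoxc6 had 97.8, 103 and 108 CPM in NA against 71.7, 58.8, 73.1 and 62.3 CPM (-0.64 ± 0.05).

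**Figure D3:**
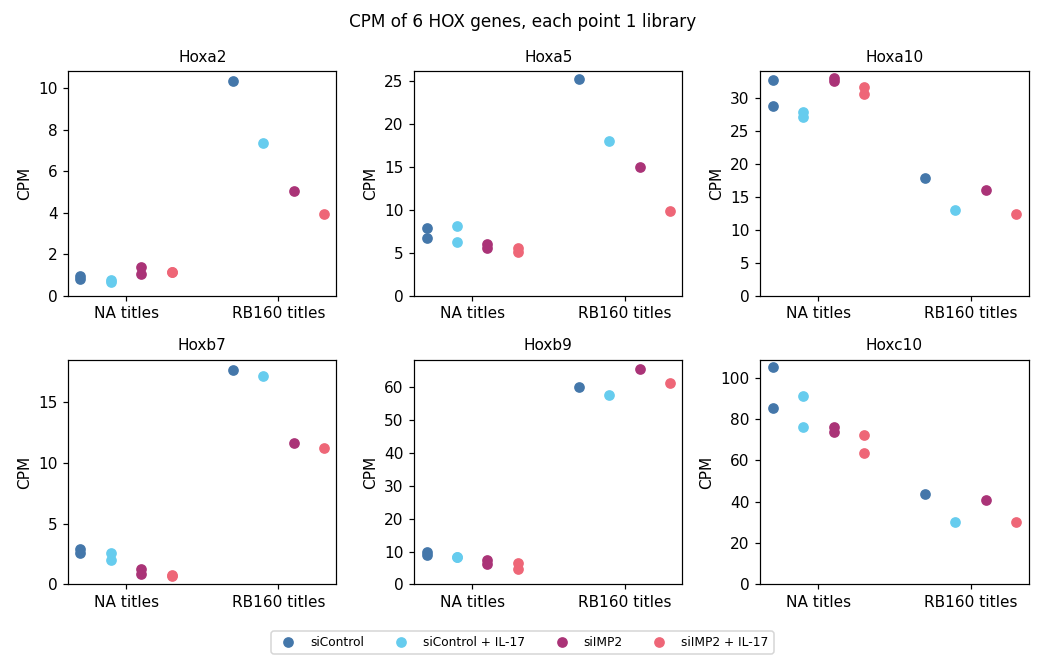
CPM (vertical axis, from 0, a scale of its own in each panel) of 6 HOX genes in the 12 libraries, by title set and by treatment group in colour; each point is 1 library. Hoxa2, Hoxa5, Hoxb7 and Hoxb9 are higher in RB160, and Hoxa10 and Hoxc10 in NA.

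In the 6 control siRNA libraries alone, fitted after seeing the data, the same counts of 17 higher and 7 lower were found. The noncoding genes of the clusters were listed as 16 rows, of which 5 could be tested and all 5 were called, against 69.5% of all genes tested. Hoxb5os and Hoxb3os, antisense to HOXB, were higher in RB160 by 4.02 ± 0.36 and 3.67 ± 0.41 (SE, log2), and Hoxaas3 and Hoxaas2 by 1.42 ± 0.21 and 1.56 ± 0.29. Hotairm1 was lower by 0.81 on the log2 scale. Strand use in the counting is not given in the sources used here, so reads of a sense gene and its antisense partner cannot be told apart. Of the reads of 12 tested HOX genes under 20% were assigned to that gene alone. Among them were Hoxa3 (2.56%), Hoxb6 (5.57%), Hoxb2 (7.79%), Hoxc9 (8.38%), Hoxc6 (9.07%), Hoxa5 (11.9%) and Hoxc8 (12.6%). By contrast 8 genes, among them Hoxa9, Hoxa10, Hoxb7, Hoxb8 and Hoxb9, had 100%. With uniquely assigned reads 15 of 24 genes were higher and 8 lower, and Hoxc5 was then lower (-0.36, edgeR adjusted p = 0.00103).

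Genes of other groups that bear on HOX genes also differed between the sets, and their counts stand against 34.9% of all genes higher and 34.6% lower in RB160. Among limb and body-wall position genes, 4 of 18 tested were higher in RB160 and 9 were lower, with a median log2 difference of -0.39 (0.00 for all genes). They included Irx3 (-1.70 ± 0.07), Msx2 (-1.74 ± 0.08) and Irx5 (-1.16 ± 0.08), while Gli3, the hedgehog-pathway factor, was higher (0.65 ± 0.04). Picked after their values were seen, Pitx1 (-1.62 ± 0.12) and Tbx4 (-3.56 ± 0.42), which are known for hindlimb identity, and Hand2 (-3.52 ± 0.39) were lower too. Pitx1 ranged from 25.1 to 30.3 CPM in NA and from 5.82 to 11.9 CPM in RB160, whereas Tbx4 never passed 0.664 CPM and Tbx5, the forelimb counterpart, had 0 counts in every library.
For retinoic acid, which induces 3' HOX genes in embryos, 4 of 15 tested pathway genes were higher and 8 lower. The synthesis enzyme gene Aldh1a2 was lower by 4.31 on the log2 scale, but at most 1.49 CPM in any library. Crabp1, a retinoic acid carrier, was lower (-3.33 ± 0.24), as was Cyp26b1, which degrades it (-1.49 ± 0.10), and Aldh1a1, another synthesis enzyme gene, was higher (1.87 ± 0.26). Head and neural crest genes split 6 higher and 5 lower of 12, with Foxc2 at -1.20 ± 0.05, Dlx2 at -1.45 ± 0.07 and Six2 at -1.41 ± 0.11.
Polycomb complexes keep HOX genes silent and MLL complexes keep them active. Of 11 tested PRC2 genes 7 were higher and 1 lower, among them Suz12 (0.74 ± 0.06) and Ezh2 (0.57 ± 0.08). PRC1 genes split 8 higher and 8 lower of 19, and MLL and trithorax genes 7 higher and 4 lower of 14, with Kdm6b at -0.89 ± 0.04 and Kmt2d at -0.68 ± 0.04. Of 9 HOX cofactor genes 3 were higher and 2 lower, among them Pknox2 at 1.05 ± 0.11. Genes outside the clusters on either side moved less than the HOX genes inside: 8 of 18 were higher and 5 lower, with a median size of 0.23. Of the 6 tested axial patterning inputs 2 were higher and 2 lower.
Markers of cell types moved with the sets as well, and their part in the HOX differences was not tested. Of 13 tested fibroblast markers 8 were higher in RB160, among them Pdgfra (2.78 ± 0.07) and Lum (3.94 ± 0.27), and 3 were lower, among them Thy1 (-4.50 ± 0.32). Stmn2, a neuronal gene, had an NA median of 63.6 CPM and an RB160 median of 0.760 CPM. Of 5 cartilage or bone markers 4 were higher, with summed levels of 176 to 235 CPM in NA and 372 to 698 CPM in RB160, and both tested skeletal muscle genes were lower.

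The IMP2 siRNA changed 5 of the 25 tested HOX genes, 1 up and 4 down, both without and with IL-17. The 4 that fell were Hoxa5, Hoxb2, Hoxb6 and Hoxb7. Without IL-17, 16.1% of all genes tested were higher and 16.7% were lower at the same threshold, and with IL-17 16.7% and 16.7%, so the HOX counts lay near or below the background. Leaving out 1 library brought the 5 calls without IL-17 to 3 (without siIMP2 replicate 1 or siControl replicate 2) or 2 (without siIMP2 replicate 2), and the 5 with IL-17 to 3 (without siControl_IL17 replicate 2). The median log2 change of the 25 genes was -0.14 without and -0.16 with IL-17, against -0.00 and -0.01 for all genes.

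Hoxb7, a trunk gene with no reads shared with other genes, had 2.59, 2.93 and 17.6 CPM in siControl and 1.29, 0.846 and 11.6 CPM in siIMP2, and 2.04, 2.54 and 17.1 CPM in siControl_IL17 against 0.699, 0.784 and 11.2 CPM in siIMP2_IL17. It was lower with the IMP2 siRNA in each set, by -1.45 in NA and -0.61 in RB160 (log2, averaged over both stimuli). In the fit to all 12 libraries the change was -0.998 ± 0.23 (SE, log2, edgeR adjusted p = 0.00458) without and -1.02 ± 0.23 (edgeR adjusted p = 0.00414) with IL-17. Hoxb7 kept both calls in each of the 12 fits that left out 1 library, and lost them in the fit without a title set term.

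Hoxa5, which patterns the neck and the lung, had 7.86, 6.78 and 25.2 CPM in siControl and 5.61, 6.07 and 15.04 CPM in siIMP2, and 6.21, 8.09 and 18.0 CPM in siControl_IL17 against 5.56, 5.08 and 9.83 CPM in siIMP2_IL17. The IMP2 siRNA libraries were lower in both sets. In the fit to all 12 libraries the change was -0.50 ± 0.16 (edgeR adjusted p = 0.0273) without IL-17 and -0.59 ± 0.16 (edgeR adjusted p = 0.0135) with it. Its call was lost in 4 of 12 fits without 1 library in unstimulated cells (siControl replicate 3 and siIMP2 replicates 1, 2 and 3) and in 2 of 12 with IL-17 (siControl_IL17 replicate 2 and siIMP2_IL17 replicate 3). In the NA libraries alone Hoxa5 was not called without IL-17 (-0.33, edgeR adjusted p = 0.115) or with it (-0.43, edgeR adjusted p = 0.052). With uniquely assigned reads, 11.9% of its reads, the call with IL-17 was lost (-0.47, edgeR adjusted p = 0.151).
Hoxb6 had 1.69, 1.82 and 12.3 CPM in siControl and 0.877, 0.787 and 11.1 CPM in siIMP2, and 1.51, 1.28 and 11.01 CPM in siControl_IL17 against 0.881, 0.533 and 8.79 CPM in siIMP2_IL17. The fall was -0.58 ± 0.21 (SE, log2, edgeR adjusted p = 0.0481) and -0.60 ± 0.21 (edgeR adjusted p = 0.0460), and both calls were fragile to single libraries. Without IL-17 the call was lost in 6 of 12 such fits (replicates 1 and 2 of siControl and of siIMP2, 2 of siControl_IL17 and 1 of siIMP2_IL17). With IL-17 it was lost in 7 of 12 (replicate 1 of siControl and of siIMP2, replicates 1, 2 and 3 of siControl_IL17, and 1 and 2 of siIMP2_IL17). With uniquely assigned reads, 5.57% of its reads, the changes were -0.54 and -0.10 and neither was called, and limma-voom called neither (adjusted p = 0.260 and 0.152).
Hoxb2 had 1.04, 1.02 and 5.49 CPM in siControl and 0.702, 0.642 and 4.33 CPM in siIMP2, and 1.14, 0.993 and 6.15 CPM in siControl_IL17 against 0.608, 0.564 and 3.84 CPM in siIMP2_IL17. Each siIMP2 library was below the siControl libraries of its own set. In the fit to all 12 libraries the change was -0.48 ± 0.15 (SE, log2, edgeR adjusted p = 0.0307) and -0.76 ± 0.15 (edgeR adjusted p = 0.00215). With uniquely assigned reads, 7.79% of its reads, the changes were -0.02 and -0.20 and neither was called. Without IL-17 the call was also lost in 5 of 12 fits without 1 library (replicates 1 and 2 of siControl and replicates 1, 2 and 3 of siIMP2), and with DESeq2 (adjusted p = 0.105), limma-voom (0.0733), no filter beyond 1 count (0.0675), the NA libraries alone (0.106) and only the groups compared (0.0787).

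The remaining HOX genes were not called. Hoxb8 came closest, at -0.45 ± 0.17 (edgeR adjusted p = 0.0512) without and -0.45 ± 0.17 (edgeR adjusted p = 0.0605) with IL-17. It was called by DESeq2 in both (adjusted p = 0.0320 and 0.0407) and by edgeR with no filter beyond 1 count (adjusted p = 0.0274 and 0.0374). By cluster the median change without IL-17 was -0.46 for the 8 HOXB genes, and -0.06 for HOXA and 0.02 for HOXC. Of the 8 HOXB genes 7 were below 0, as were 6860 of all 13702 genes tested. Hoxb2, Hoxb3, Hoxb5 and Hoxb6 had only 5.57% to 13.7% of reads assigned to them alone, so the HOXB genes were not all measured separately. Hoxc6 (0.03 and 0.06) and Hoxc10 (-0.26 and -0.21), the HOX genes of the highest level in NA, were not called. A miR-196 seed match stood in 4 of the 5 called genes and in 8 of the 25 tested ones.

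**Figure D4:**
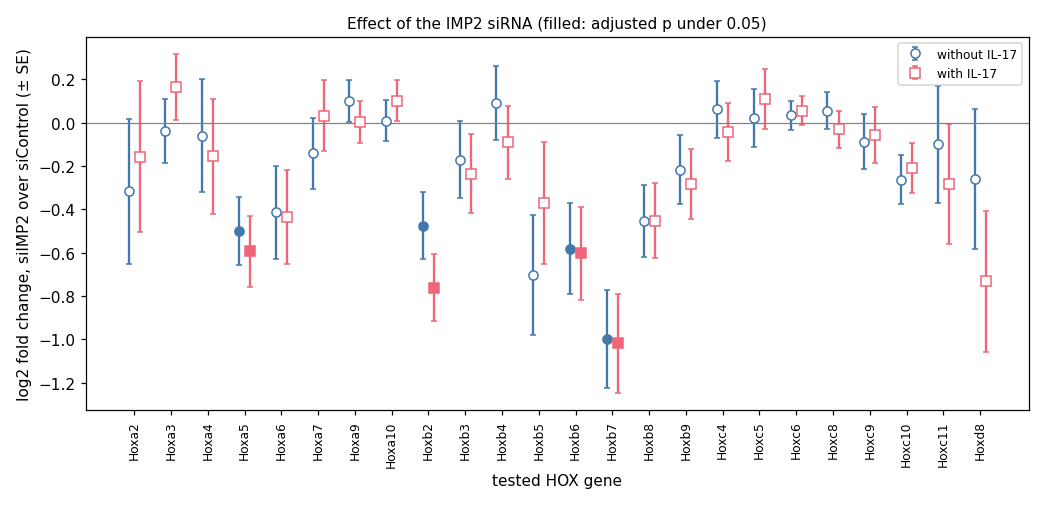
Log2 fold change of siIMP2 over siControl (vertical axis, ± SE) for tested HOX genes without IL-17 (circles) and with IL-17 (squares); filled symbols passed an adjusted p of 0.05. Hoxb7 is near -1.0 in both, and the HOXC genes lie around 0.

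In other gene groups the counts without IL-17 stand against 16.1% of all genes higher and 16.7% lower, and those with IL-17 against 16.7% each way. Of the HOX cofactors, none of 9 rose and 5 fell without IL-17, among them Meis2 (-0.76 ± 0.10), Pbx2 (-0.48 ± 0.06), Meis3 (-0.29 ± 0.08) and Pknox2 (-0.46 ± 0.15). With IL-17 4 of 9 fell, and Pknox2 was not called. Among retinoic acid pathway genes 2 of 15 rose and 7 fell, with Stra6, the retinol transporter gene, at -2.24 ± 0.29, Dhrs3 at 0.96 ± 0.12, and the receptor genes Rarg at -0.34 ± 0.05 and Rxra at -0.34 ± 0.06. Gdf11, a ligand that sets the trunk-to-tail transition of HOX expression, fell (-0.93 ± 0.11), as did Tgfbr1 (-0.41 ± 0.08), 2 of 6 axial inputs, and none rose.
Limb and body-wall genes had 1 of 18 higher, Msx2 (1.05 ± 0.10), and 7 lower, among them Prrx1 (-0.89 ± 0.07), Gli3 (-0.43 ± 0.06) and Irx5 (-0.37 ± 0.10). Head and neural crest genes had 3 higher and 3 lower of 12, among them Foxc2 (0.41 ± 0.07), Dlx2 (0.45 ± 0.09) and Foxd1 (-0.83 ± 0.15). Chromatin regulators were split: 1 higher and 1 lower of 11 for PRC2 (Ezh1 at 0.27 ± 0.08 and Phf19 at -0.67 ± 0.19), 5 and 5 of 19 for PRC1, among them Bmi1 at -0.30 ± 0.05 and Cbx8 at 0.36 ± 0.08, and 3 and 4 of 14 for MLL and trithorax, among them Kdm6b (0.53 ± 0.05), Dot1l (0.56 ± 0.07) and Psip1 (-0.51 ± 0.07). Genes beside the clusters had 4 higher and 3 lower of 18, among them Hibadh (-0.58 ± 0.08) and Nfe2l1 (0.45 ± 0.06). Hotairm1 rose without IL-17 (0.84 ± 0.27, edgeR adjusted p = 0.0321), and with IL-17 was at 0.76 ± 0.28 (edgeR adjusted p = 0.0561), and the other 4 tested noncoding genes of the clusters were not called in either comparison.
Cell type markers moved with the siRNA, and their part in the HOX changes was not tested. Of 13 fibroblast markers 2 rose and 8 fell without IL-17, among them Pdgfra (-2.23 ± 0.11) and Dcn (-2.65 ± 0.24), while their summed level was 27538 to 33611 CPM with the control siRNA and 30049 to 37910 CPM with the IMP2 siRNA. The skeletal muscle gene Acta1 rose by 1.96 ± 0.22.

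The effect of the siRNA, averaged over both stimuli, differed between the title sets for 7 HOX genes, 3 with a higher value in RB160 (3.11% of all genes) and 4 with a lower one (2.09% of all genes), in edgeR's interaction test. The 4 lower ones were all in HOXA and the 3 higher ones all in HOXB. Hoxa2 stood out with a log2 change of 0.52 in NA and -0.97 in RB160, a difference of -1.52 ± 0.22 (SE, edgeR adjusted p = 0.00254). In NA its values were 0.956, 0.806, 0.770 and 0.671 CPM with the control siRNA and 1.40, 1.02, 1.12 and 1.13 CPM with the IMP2 siRNA, and in RB160 10.3 and 7.37 CPM against 5.04 and 3.91 CPM. The siRNA groups did not overlap in either set and were ordered in opposite ways.
Hoxa3 (0.29 in NA and -0.31 in RB160), Hoxa4 (0.32 and -0.69) and Hoxa7 (0.19 and -0.51) had the same pair of signs. Hoxb9 was at -0.54 in NA and 0.11 in RB160, Hoxb7 at -1.45 and -0.61, and Hoxb6 at -0.99 and -0.24. Of 9 tested HOXA genes 6 were above 0 in NA and 2 in RB160, and of 8 HOXB genes 7 were below 0 in each set. The RB160 value rests on 2 libraries per siRNA, 1 for each stimulus. The number of genes called fell to 1, Hoxa2, without siControl replicate 3 and without siIMP2_IL17 replicate 3, to 3 without siIMP2 replicate 2 or siControl_IL17 replicate 3, and to 4 without siIMP2_IL17 replicate 2 or siIMP2 replicate 3. The fall of Igf2bp2 itself was smaller in RB160, at -2.44 without and -2.30 with IL-17 against -2.94 and -2.93 in NA (difference 0.55, edgeR adjusted p = 0.0328), and its part in the HOX differences was not tested.

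**Figure D5:**
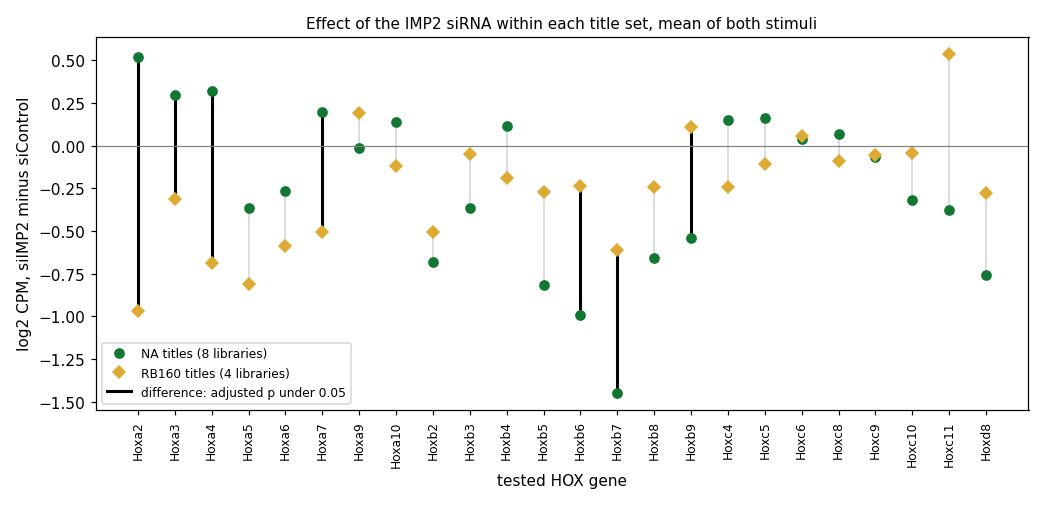
Log2 CPM of siIMP2 minus siControl (vertical axis), averaged over both stimuli, within the 8 NA libraries (circles) and the 4 RB160 libraries (diamonds) for tested HOX genes; black lines mark differences with an adjusted p under 0.05. Hoxa2, Hoxa3, Hoxa4 and Hoxa7 lie above 0 in NA and below 0 in RB160.

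IL-17 changed no HOX gene by the threshold. With edgeR 0 of 25 were called with the control siRNA (0.423% of all genes were called) and 0 of 25 with the IMP2 siRNA (0.511%), and 7 and 3 members had an unadjusted p under 0.05, as did 1503 and 1038 of all 13702 genes tested. DESeq2 and limma-voom also called 0 in both comparisons. Most values lay slightly below 0. With the control siRNA it was 21 of 25, as it was 7132 of all 13702 genes tested (median log2 change -0.22, against -0.01 for all genes). With the IMP2 siRNA it was 24 of 25, and 7231 of all genes (median -0.20 against -0.01). For 12 of the 25 under 20% of reads were assigned to that gene alone, so these are not 25 separate measurements. The extremes were -0.46 for Hoxb8 and 0.17 for Hoxd8 with the control siRNA, and -0.46 for Hoxb8 and 0.03 for Hoxb5 with the IMP2 siRNA. The smallest adjusted p values were 0.314 (Hoxb8) and 0.242 (Hoxc8) by edgeR. The difference of the 2 IL-17 effects was called for 0 HOX genes and for 0.00% of all genes, with 0 members at an unadjusted p under 0.05 and 0 calls by DESeq2 and limma-voom.

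The authors' deposited table gives values for 32 HOX genes in each of 6 group comparisons, and 0 of them passed a false discovery rate of 0.05 in any of them. For the IMP2 siRNA without IL-17, the authors' deposited table lists a log2 fold change of -0.75 for Hoxb7. The fit made here without a title set term gave -0.75 for that gene, and called 0 HOX genes.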

How the data were processed

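Whole-number read counts over exons, deposited by the authors for 12 libraries, were the input, on the build mm10 per the submitters' processing notes. No aligner, counter or strand setting is given in the sources used here. The deposited RPKM values are the authors' own. The deposited log2 fold changes and the deposited p-values (false discovery rates) come from the authors' comparisons, whose model is not stated in those sources. Uniquely assigned and intron-inclusive reads, deposited per library, served as alternatives. The 12 count columns equalled the per-library files.

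The quasi-likelihood test of edgeR 4.0.16 (R 4.3.3) was run on all 12 libraries with TMM scaling and terms for group and title set. Its filterByExpr step, at a count of 10 and a total of 15, kept 13702 genes, over which p was adjusted by Benjamini-Hochberg (threshold 0.05). The siRNA effect by title set adds an interaction term. CPM values are TMM-scaled, and log2 CPM within a set used a prior count of 2. Within-set values come from log2 CPM, the others from the fit. Groups came from the labels. A replicate number is only a name taken from accession order. Counts of replicates of 1 group differed by more than sampling noise (chi-square per degree of freedom 8.863 to 231.1), so each library was kept. The pairs compared include those of an NA with an RB160 library, so this range also holds the title set difference.

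The HOX genes were chosen by name. This choice, the gene lists and the tests were made with earlier results of these data known. Named were members called in an IL-17 or siRNA comparison, up to 8 of smallest p per direction for the siRNA and the title sets, the 2 of highest RPKM per cluster, and up to 4 genes of smallest p per other list. A few of these are not reported here. The method was tested on simulated counts. Coordinates of all 39 members equal those of GENCODE M21, which gave 3' UTRs (the longest per gene was used), and promoters and microRNAs came from RefSeq. Alternatives were RLE factors, DESeq2 1.42.0, limma-voom (limma 3.58.1), other filters, no title set term, fewer samples, other read counts and each library left out. Tables and figures used Python 3.11.15, pandas 2.3.3 and matplotlib 3.10.9.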

Additional observations from a re-analysis of the deposited data

Results flagged for a closer look

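The siRNA effect differed between the title sets, by an interaction term in edgeR, for 7 HOX genes. As log2 values of RB160 minus NA, the differences were -1.52 for Hoxa2, -0.61 for Hoxa3, -1.02 for Hoxa4 and -0.71 for Hoxa7 in HOXA, and 0.64 for Hoxb9, 0.86 for Hoxb7 and 0.79 for Hoxb6 in HOXB. Hoxa2 kept its call in each of the 12 fits that left out 1 library. Hoxa3 and Hoxa7 lost theirs in 2 fits each, without siControl replicate 3 and without siIMP2_IL17 replicate 3. Hoxb9 lost it in 4 fits (those 2, siControl_IL17 replicate 3 and siIMP2 replicate 2). Hoxa4 lost it in 7 (the 4 RB160 libraries, replicate 1 of siControl_IL17, and replicate 2 of siIMP2 and siIMP2_IL17). Hoxb7 lost it in 9 (the 4 RB160 libraries, replicate 2 of each group and replicate 1 of siIMP2_IL17). Hoxb6 lost it in 10, and kept it without siControl_IL17 replicate 2 and without siIMP2_IL17 replicate 1. The RB160 set has 1 library per group.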

How the results depend on the processing

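The title set difference was called for 24 HOX genes with RLE factors, DESeq2, limma-voom and both other filters, as it was for 24 of 25 in the main fit. With no filter beyond 1 count, the 7 HOX genes of few counts were tested as well as the 25. Calls numbered 22 to 24 when each library was left out. Hoxc5, not called in the count fit, was lower in RB160 with unique gene reads (-0.36) and with total gene reads that include introns (-0.25); both alternatives were chosen after seeing the data. The 5 calls of the siRNA effect without IL-17 became 3 with limma-voom, 0 without the title set term and 3 with unique gene reads (2 to 6 leaving out each library). The 5 calls with IL-17 became 0 without the title set term and 2 with unique gene reads (3 to 6 leaving out each library). The 0 calls of the IL-17 effect with the IMP2 siRNA became 1, Hoxc8, when only the groups compared were fitted, and stayed 0 leaving out each library. The 7 calls of the siRNA effect by title set became 4 with unique gene reads (1 to 6 leaving out each library). The cause of these changes was not tested. No paired analysis was possible because the labels give no replicate numbers: those used here follow accession order and only name libraries. The title set, which the labels do give, was a term of the reported model. Unique reads are few for most overlapping HOX genes, and 14 members were too low to test.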
